A study of Rattus norvegicus with 4 samples.

Results

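The genes described here carry out DNA replication and mitosis, and their RNA was measured in rat lens capsules after extracapsular lens extraction (ECLE), the surgery that removes the lens contents and leaves the capsule with its lens epithelial cells (LECs). The list holds 49 genes, 19 of replication and 30 of mitosis. A gene was counted when a probe set, a group of array probes aimed at its transcript, carried its symbol alone, and the brightest by mean over the arrays was used. This gave 46 of the 14217 genes on the array, 18 of replication and 28 of mitosis. *Rrm2* and *Hmgb2* had only probe sets that carry several symbols, and *Tpx2* had none. All animals were female albino Sprague-Dawley rats that had surgery in both eyes at 7 weeks of age. Capsules were taken when surgery was complete (day 0, 1 array, age 7 weeks), after 7 days (1 W, 2 arrays named biological replicates 1 and 2, age 8 weeks) and after 14 days (2 W, 1 array, age 9 weeks). The day 0 group had also been operated on, so no array holds an unoperated lens, and how many eyes or animals were pooled on an array is unknown here. The methods describe more samples in each group than the arrays studied. Intensities are printed as deposited. Ratios were taken on scaled values, each array having been set to the same mean, because the mean intensity went from 244 (day 0) through 218 and 209.95 (1 W) to 165 (2 W). Both the 1 W and the 2 W ratios use the single day 0 array. For the 10455 genes that reached the 40th percentile by mean level (the filter), the typical gene had a log2 ratio of -0.0077 (1 W) and -0.21 (2 W) as a median. Among 13 lens epithelium markers, *Cryab*, *Pax6* and *Gja1* lay at the 99.96, 99.11 and 99.89 percentiles of mean level. They were picked from the list, and photoreceptor markers also had signal at day 0 (a sum of 63.3 in units of the array mean). Lens origin was not tested.

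Cells copy their DNA in S phase and part the copies in mitosis. Before S phase the MCM helicase is loaded on origins, and polymerases, the sliding clamp and ligases then build the new strands from deoxynucleotides. Mitosis is driven by Cdk1 with cyclins A and B and by Aurora and Polo-like kinases, is held by the spindle checkpoint, and ends when the anaphase promoting complex marks cyclin B for destruction. Many replication genes are transcribed through E2F sites, and many mitosis genes through the cell cycle genes homology region (CHR) with CCAAT boxes bound by NF-Y. In the normal lens, dividing cells lie in the epithelium near the equator, and the LECs left after cataract surgery are known to multiply and spread over the capsule.

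E2F matches were more frequent in the replication promoters and CHR matches in the mitosis promoters. RefSeq promoters (rat assembly GRCr8, 250 bases before and 50 after the start) were matched for 40 of the 46 genes, 16 of replication and 24 of mitosis, and were searched on both strands. *Mcm4*, *Ccne2*, *Aurkb*, *Ccna2*, *Racgap1* and *Ube2c* were not matched. An E2F match (TTTCCCGC, TTTCGCGC, TTTGCCGC or TTTGGCGC) stood in 9 of 16 replication promoters (56.2%) and 2 of 24 mitosis promoters (8.33%), against 3.65% of 11701 promoters of genes with a probe set and 2.25% of all 27457 promoters. A CHR match (TTTGAA or TTCGAA) stood in 3 of 16 replication promoters and 16 of 24 mitosis promoters (66.7%), against 14.0% and 19.5% of the same sets. CCAAT was found in 8 of 16 and 18 of 24, against 37.3% and 37.7%. Both CHR and CCAAT were present in 2 of 16 replication and 13 of 24 mitosis promoters, against 5.76% and 7.83%. CHR matches were as frequent in the mitosis promoters whose gene was under 0.5-fold at 2 W (8 of 12) as in the others (8 of 12). A match is a run of letters and was not tested as a bound site. The replication genes shown first are the 3 with the lowest ratio at 2 W among those above the filter with an E2F match in the 150 bases before the start, and capitals mark that match.
Mcm5, chr19:13488663-13488812 (plus strand): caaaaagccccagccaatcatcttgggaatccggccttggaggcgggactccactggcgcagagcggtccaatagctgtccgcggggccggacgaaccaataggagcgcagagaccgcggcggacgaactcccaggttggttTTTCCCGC
Tyms, chr9:120776084-120776233 (minus strand): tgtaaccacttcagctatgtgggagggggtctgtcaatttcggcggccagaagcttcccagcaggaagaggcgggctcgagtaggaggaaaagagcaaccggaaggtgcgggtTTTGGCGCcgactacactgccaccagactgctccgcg
Mcm6, chr13:42404353-42404502 (minus strand): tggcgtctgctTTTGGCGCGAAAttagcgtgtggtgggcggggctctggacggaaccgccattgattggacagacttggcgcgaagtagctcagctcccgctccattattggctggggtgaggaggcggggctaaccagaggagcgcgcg
The mitosis genes shown next are the 3 with the lowest ratio at 2 W whose same stretch holds both other elements, and capitals mark CHR and CCAAT matches, which share a base in *Mki67*.
Prc1, chr1:143659331-143659480 (plus strand): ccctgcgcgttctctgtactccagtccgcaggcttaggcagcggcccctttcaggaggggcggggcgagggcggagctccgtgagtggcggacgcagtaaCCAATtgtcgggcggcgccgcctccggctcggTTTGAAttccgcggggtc
Mki67, chr1:199952594-199952743 (minus strand): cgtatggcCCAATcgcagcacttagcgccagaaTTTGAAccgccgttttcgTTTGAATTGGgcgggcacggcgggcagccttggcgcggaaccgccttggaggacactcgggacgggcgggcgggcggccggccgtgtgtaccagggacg
Top2a, chr10:84473094-84473243 (minus strand): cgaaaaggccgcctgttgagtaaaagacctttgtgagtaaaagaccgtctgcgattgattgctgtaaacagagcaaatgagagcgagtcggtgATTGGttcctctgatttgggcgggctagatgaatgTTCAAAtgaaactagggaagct
In *Mcm6* a forward and a reverse E2F match overlap, while *Mcm5* and *Tyms* hold 1 each in this stretch.

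**Figure D1:**
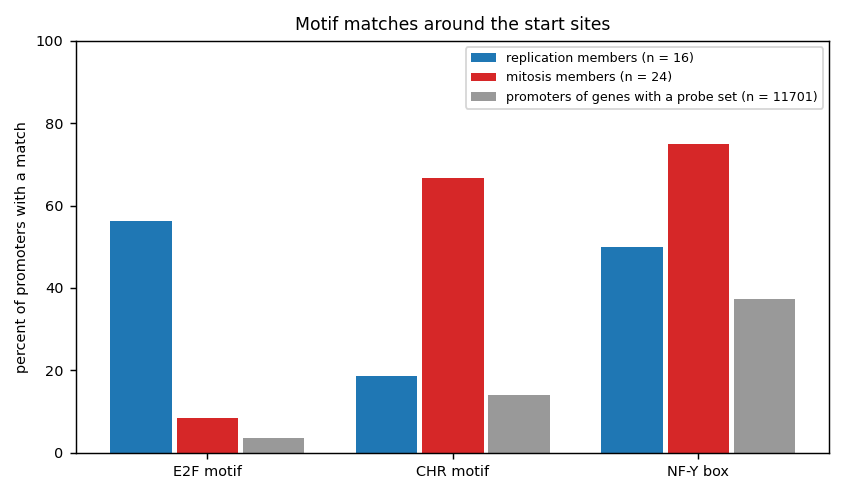
Percent of promoters (vertical axis) that hold a match to the E2F motif, the CHR motif or the NF-Y box, in either orientation, for the replication genes (blue), the mitosis genes (red) and all genes with a probe set (gray). The blue bar is the highest for E2F at 56.2%, and the red bar is the highest for CHR at 66.7%.

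At 1 W the replication and mitosis genes were near their day 0 levels, and at 2 W most were lower than on any other array. At 1 W, 45 of the 46 genes lay between 0.5-fold and 2.0-fold of day 0. *Plk1* was the exception at over 2.0-fold, and its level was low. Over 2.0-fold and under 0.5-fold at 1 W were 8.98% and 8.36% of all genes, and 4.95% and 3.71% of those above the filter. Of the 46 genes, 36 were within 0.5 log2 units of day 0 on both 1 W arrays. This was true of 47.7% of all genes and 59.8% of those above the filter. At 2 W, 42 of 46 were below day 0, 14 of them under 0.5-fold (30.4%), and *Plk1* was over 2.0-fold. Over all 14217 genes, 8237 were below day 0, 14.7% were under 0.5-fold and 12% over 2.0-fold at 2 W. Above the filter 13 of 43 members were under 0.5-fold (30.2%), beside 12.3% of genes there. The 2 W array was the lowest of the 4 for 41 of the 46 genes, as it was for 41.4% of all genes and 48.3% above the filter. The 1 W arrays differed by a median of 0.19 log2 units over the members. In 39 of 46 the 2 W array lay below both by more than they differed from each other. This held for 34.4% of all genes and 40.6% above the filter. Both 1 W arrays lay above day 0 and 2 W below it in 21 of 46 genes (45.7%), as in 11.5% of all genes and 13.1% above the filter. Scaling by the array median, which moves the median gene above the filter from -0.21 to 0.062 at 2 W, left 38 of 46 genes below day 0 and 8 under 0.5-fold. The shares over all genes were not counted under that scaling. In whole capsules, fewer dividing cells and less RNA per cell cannot be told apart, and a change in any cell type of the capsule enters the same value.

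**Figure D2:**
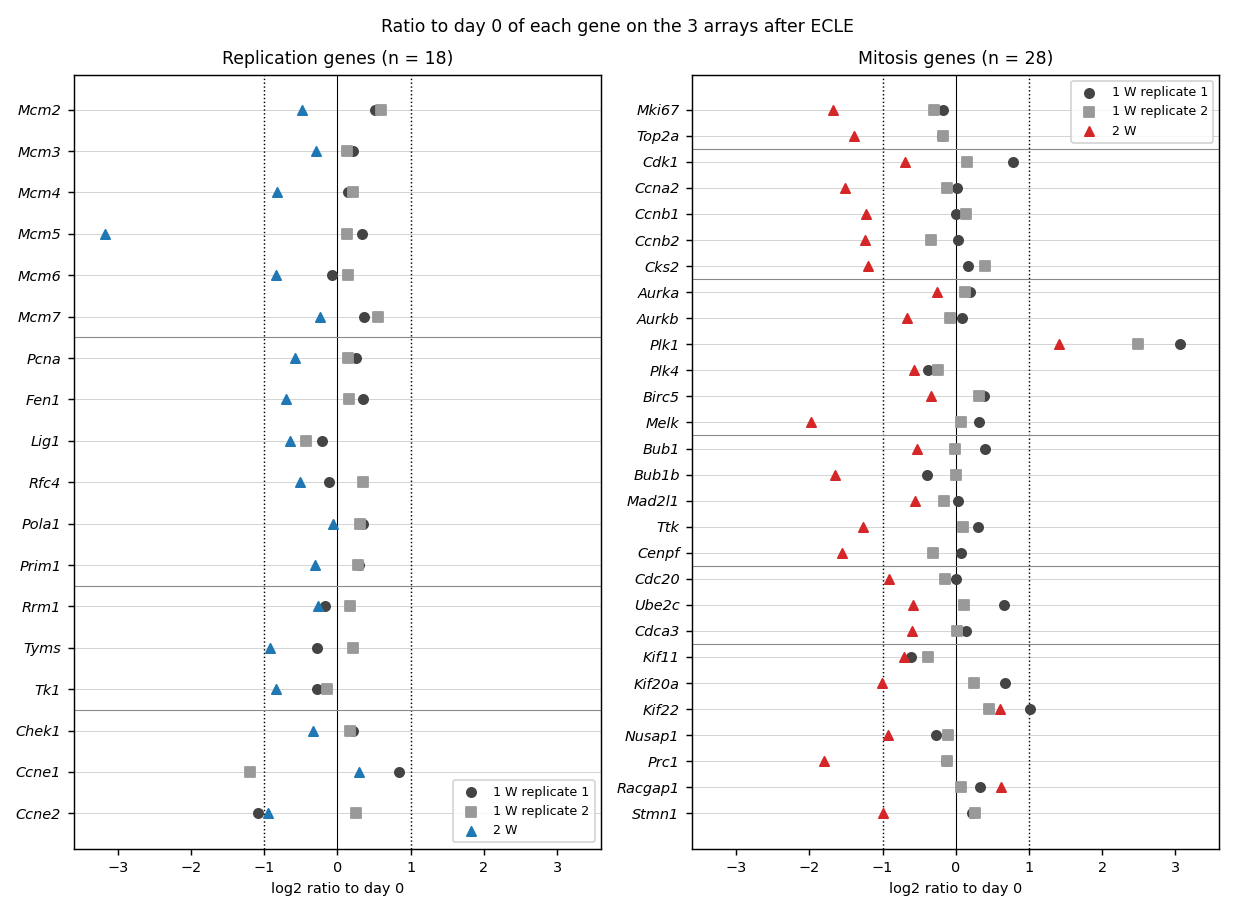
Replication genes (left) and mitosis genes (right) by their log2 ratio against day 0 (horizontal axis), with 1 point per array after ECLE and dotted lines at 2.0-fold and 0.5-fold. The triangles of 2 W lie left of both 1 W points for most genes, farthest for Mcm5 at -3.17, while for Racgap1, Kif22, Ccne1 and Ccne2 they do not.

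The MCM helicase, which unwinds DNA at replication origins and forks, was measured by all 6 subunits. *Mcm7*, the brightest, had intensities of 294 (day 0), 337 and 371 (1 W) and 168 (2 W). Relative to day 0 it was 1.37-fold at 1 W and 0.844-fold at 2 W. *Mcm2* had the highest ratio of the complex at 1 W, with intensities of 127 (day 0), 161 and 164 (1 W) and 61.3 (2 W). Both 1 W arrays stood above day 0 in *Mcm2* (log2 ratios of 0.51 and 0.59) and 2 W stood below it (-0.48). *Mcm5* departed most, with intensities of 83.6 (day 0), 93.5 and 78.7 (1 W) and 6.25 (2 W) and a log2 ratio of -3.17 at 2 W. That is a move from the 57.3 to the 18.6 percentile of the array, measured by a single probe set. *Mcm3*, *Mcm4* and *Mcm6* had log2 ratios of -0.30, -0.82 and -0.83 at 2 W. All 6 subunits were below day 0 at 2 W, as were 8237 of all 14217 genes. With arrays scaled by the median, the 75th percentile or quantiles, however, *Mcm7* was above day 0, and *Mcm3* under the latter pair.

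All 6 enzymes of the fork were below day 0 at 2 W, as were 8237 of all 14217 genes. With arrays scaled by the median, the 75th percentile or quantiles, however, *Pola1* was above day 0, and *Prim1* by the 75th percentile. *Pcna*, the sliding clamp of DNA polymerases and the brightest replication gene, had intensities of 1167 (day 0), 1240.1 and 1103 (1 W) and 528 (2 W). Its log2 ratios were 0.25 and 0.14 at 1 W and -0.58 at 2 W. *Pola1*, the catalytic subunit of the polymerase that starts new strands, had 127 (day 0), 144 and 135 (1 W) and 82.5 (2 W), and its 2 W value was 0.959-fold of day 0. *Prim1*, a subunit of the primase, was 1.22-fold at 1 W and 0.805-fold at 2 W. *Fen1*, which trims flaps from lagging strand fragments, was 1.19-fold and 0.616-fold. *Lig1*, which seals those fragments, was below day 0 at both times (0.800-fold and 0.637-fold). By its dimmer probe set, also above the filter, both 1 W arrays were above day 0 (log2 ratios of 0.054 and 0.27), so its 1 W direction depends on the probe set. *Rfc4*, a subunit of the clamp loader, was 1.08-fold and 0.700-fold. None of the 6 reached 0.5-fold at either time.

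The 3 genes of deoxynucleotide supply were below day 0 at 2 W, as were 8237 of all 14217 genes, and above 0.5-fold. With arrays scaled by the median, the 75th percentile or quantiles, however, *Rrm1* was above day 0. *Rrm1*, the large subunit of ribonucleotide reductase, had intensities of 264 (day 0), 209 and 255 (1 W) and 148 (2 W), and after scaling its 1 W arrays stood on either side of day 0. *Tk1*, the thymidine kinase of dividing cells, had 147 (day 0), 108 and 115 (1 W) and 55.7 (2 W). It was 0.863-fold at 1 W and 0.561-fold at 2 W. By its second probe set, also above the filter, both 1 W arrays were above day 0 (log2 ratios of 0.13 and 0.072). Its 1 W direction thus depends on the probe set. *Tyms*, thymidylate synthase, was 0.976-fold and 0.527-fold.

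Of the genes of S phase entry, both E-type cyclins differed more between the 1 W arrays than any other member. *Ccne2*, a cyclin that activates Cdk2, had intensities of 96.8 (day 0), 40.5 and 99.3 (1 W) and 33.7 (2 W), so that replicate 1 resembled 2 W and replicate 2 resembled day 0. The related *Ccne1* was dim, with 21.3 (day 0), 34.01 and 8.03 (1 W) and 17.7 (2 W), and its 1 W arrays differed by 2.03 log2 units. For neither cyclin did 2 W lie outside the spread of the 1 W arrays. *Chek1*, the kinase that restrains mitosis while DNA is damaged or unreplicated, had log2 ratios of 0.21, 0.17 and -0.34.

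Among the mitosis genes, the markers of dividing cells were low at 2 W. *Mki67*, which encodes the Ki-67 protein of dividing cells, had intensities of 197 (day 0), 156 and 138 (1 W) and 41.7 (2 W). The 1 W arrays were at 0.888-fold and 0.815-fold of day 0 and 2 W was at 0.314-fold. *Top2a*, the topoisomerase that untangles chromosomes, had 172 (day 0), 134 and 131 (1 W) and 44.2 (2 W), and 2 W was at 0.381-fold. The 1 W arrays differed by at most 0.12 log2 units in these genes.

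Of the mitotic cyclins with Cdk1 and its subunit, 4 of 5 genes were under 0.5-fold at 2 W, beside 14.7% of all genes. *Cks2*, a small subunit bound to Cdks, had intensities of 229 (day 0), 228 and 259.6 (1 W) and 67.4 (2 W). The 2 W value of *Cks2* was 0.436-fold of day 0 and 0.359-fold of 1 W. *Cdk1* itself had 132 (day 0), 202 and 127 (1 W) and 55.1 (2 W), and replicate 1 stood above replicate 2 by 0.62 log2 units. The cyclins were each under 0.5-fold at 2 W, with 0.351-fold for *Ccna2*, 0.426-fold for *Ccnb1* and 0.424-fold for *Ccnb2*. These 3 were between 0.899-fold and 1.05-fold at 1 W.

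Mitotic kinases and their partners did not share 1 course. *Plk4*, the kinase of centriole duplication, had intensities of 146 (day 0), 100.1 and 106 (1 W) and 66.4 (2 W), with 0.674-fold at 2 W. *Plk1*, the Polo-like kinase of mitotic entry and spindle assembly, had 4.38 (day 0), 32.5 and 21.2 (1 W) and 7.89 (2 W), and all arrays after ECLE were above day 0. Its day 0 value was at the 11.7 percentile of the array, and with a floor at the 20th percentile of each array it was no longer over 2.0-fold at 2 W. *Melk*, a kinase of dividing cells, was 1.15-fold at 1 W and 0.254-fold at 2 W, from 67.1, 74.5, 60.6 and 11.5 in the order of the arrays. *Aurka* and *Aurkb*, the Aurora kinases of the spindle poles and of the chromosomal passenger complex, were 0.834-fold and 0.628-fold at 2 W, and *Aurka* was above day 0 with arrays scaled by the median or the 75th percentile. *Birc5*, which encodes survivin of the same complex, was 1.27-fold and then 0.789-fold.

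Genes of the spindle checkpoint, which delays anaphase until chromosomes are attached, differed in size at 2 W. Of these genes, 3 of 5 were under 0.5-fold, beside 14.7% of all genes. *Mad2l1*, which encodes the checkpoint protein MAD2, had intensities of 106 (day 0), 95.7 and 81.4 (1 W) and 48.5 (2 W), or 0.680-fold at 2 W. *Bub1*, a kinase of the checkpoint, was at 0.695-fold. *Bub1b*, which encodes BUBR1 (0.320-fold), *Cenpf*, a large protein of the kinetochore (0.340-fold), and *Ttk*, the kinase MPS1 (0.416-fold), were under 0.5-fold. *Ttk* was dim on every array, at 20.1, 22.0, 18.5 and 5.65 in the order of the arrays. Its dimmer probe set was above day 0 at 2 W. With arrays scaled by the median or the 75th percentile, *Ttk* was not under 0.5-fold.

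Genes linked to the anaphase promoting complex were 0.529-fold (*Cdc20*, its activator), 0.667-fold (*Ube2c*, its ubiquitin-conjugating enzyme) and 0.660-fold (*Cdca3*, a trigger of mitotic entry) at 2 W. *Cdca3* had intensities of 148 (day 0), 145 and 128 (1 W) and 65.8 (2 W). *Ube2c* had 81.5 (day 0), 115 and 75.4 (1 W) and 36.7 (2 W), with replicate 1 above the other arrays.

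Of the spindle and cytokinesis genes, 3 of 7 were under 0.5-fold at 2 W and 2 were above day 0. Over all 14217 genes, 14.7% were under 0.5-fold and 5980 were above day 0. *Stmn1*, a protein that destabilizes microtubules and the brightest mitosis gene, had intensities of 1202 (day 0), 1250.4 and 1240.4 (1 W) and 406 (2 W). Its 1 W arrays were at 1.17-fold and 1.20-fold and 2 W was at 0.4998-fold, just inside the limit. *Kif20a*, a motor of cytokinesis, was the other member just inside (0.497-fold), and *Ccne2* and *Nusap1*, a spindle microtubule protein, were just outside (0.516-fold and 0.525-fold). *Prc1*, which bundles microtubules of the central spindle, had 168 (day 0), 136 and 133 (1 W) and 32.5 (2 W), or 0.286-fold. *Kif11*, a motor that pushes spindle poles apart, was lower at both times, at 0.709-fold and 0.613-fold. *Kif22*, a motor that moves chromosome arms, had 47.9 (day 0), 85.7 and 56.6 (1 W) and 49.2 (2 W), and every array after ECLE was above day 0. *Racgap1*, which directs the contractile ring and also has roles in cells that do not divide, had 218 (day 0), 244 and 197 (1 W) and 226 (2 W), and was 1.54-fold at 2 W. *Racgap1* was the only member whose 2 W array lay above both 1 W arrays by more than these differed, and as deposited, without scaling, it lay between them.

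Mitosis genes were lower than replication genes at 2 W. The median log2 ratio of the 18 replication genes was 0.21 and 0.17 on the 1 W arrays and -0.55 at 2 W. For the 28 mitosis genes it was 0.11, 0.0085 and -0.92. The mitosis median minus the replication median was -0.095 and -0.16 on the 1 W arrays and -0.38 at 2 W. These medians describe 4 arrays and were not tested, since 2 W has 1 array. Of the replication genes, 1 of 18 was under 0.5-fold at 2 W (*Mcm5*, 5.56%), and of the mitosis genes 13 of 28 (46.4%). The shares were 14.7% over all genes and 12.3% above the filter, so the replication share lay below both. From 1 W to 2 W, 3 of 18 and 15 of 28 were under 0.5-fold, beside 8.44% of all genes and 5.13% of those above the filter. The median ratio of 2 W to 1 W was -0.63 for replication, -1.13 for mitosis and -0.22 for genes above the filter, on the log2 scale. Genes whose mean level lay between the quartiles of the members (2332 genes) had a median of -0.27. Division by another constant per array moves both medians alike: relative to the median of genes above the filter, replication was -0.34 and mitosis -0.71 at 2 W under each linear scaling. Under quantile normalization these were -0.29 and -0.66.

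**Figure D3:**
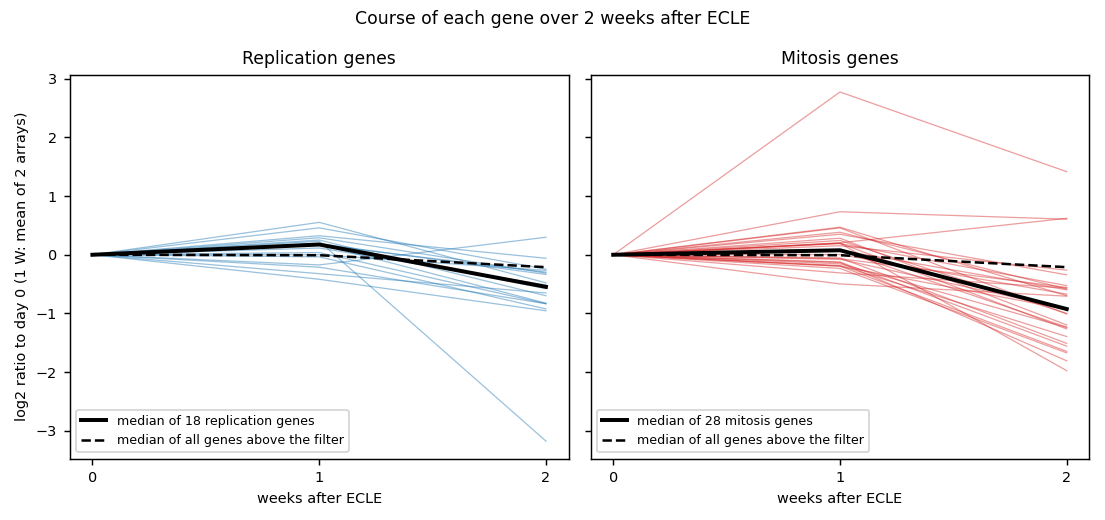
Log2 ratio to day 0 (vertical axis) against weeks after ECLE for each replication gene (blue, left) and mitosis gene (red, right), with the median of each group (thick line) and of all genes above the filter (dashed). The thick lines stay near 0 at 1 W and reach -0.55 and -0.92 at 2 W, below the dashed line at -0.21.

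**Figure D4:**
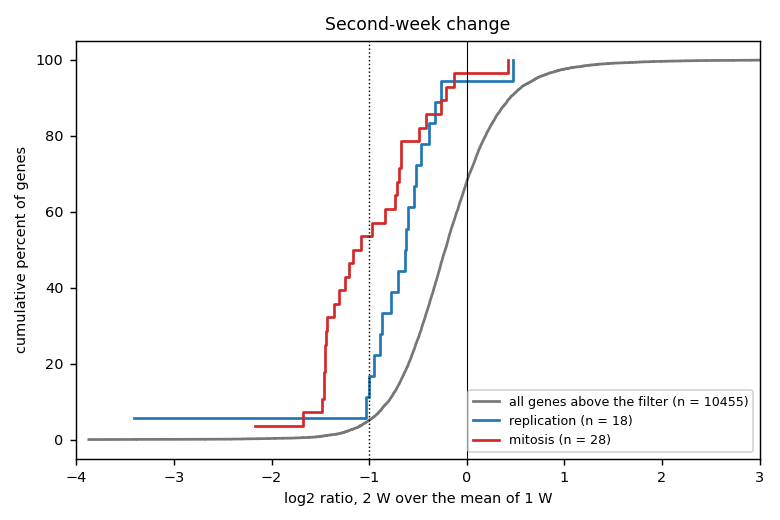
Cumulative percent of genes (vertical axis) by their log2 ratio of 2 W to the mean of 1 W (horizontal axis), for replication genes, mitosis genes and all genes above the filter, with a dotted line at 0.5-fold. The red line of mitosis genes lies farthest left, and 15 of its 28 genes are left of the dotted line.

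None of the 43 members tested passed limma, the linear model fitted on all 18625 probe sets above the filter. Its spread comes from the 2 arrays at 1 W alone, so day 0 and 2 W are assumed to have that spread too, and its p-values cover only that spread. Of 43 members tested, 0 had an adjusted p under 0.05 in any comparison, and limma called 0% of all probe sets lower in each and 0.0483% higher than day 0 at either time. At 2 W against day 0, 18 members were lower at an unadjusted p under 0.05 (41.9%) and 0 higher, beside 21.9% of probe sets lower and 9.01% higher. These were 5 of 17 replication and 13 of 26 mitosis genes. Against 1 W, 26 members were lower (60.5%, 9 of replication and 17 of mitosis) and 0 higher, beside 16.4% and 5.5% of probe sets. At 1 W against day 0, 0 members reached an unadjusted p under 0.05 in either direction, beside 8.21% of probe sets higher and 9.66% lower. The lowest adjusted p from limma at 2 W was 0.0577 for *Mcm5* (log2 ratio -3.17, standard error 0.38). *Prc1* (log2 ratio -1.81, standard error 0.25) had an adjusted p of 0.0577, and *Mki67* (-1.67, standard error 0.24) of 0.0597. For *Stmn1* the log2 ratio of -1.0005 had a standard error of 0.15 and an adjusted p of 0.06 in limma. With arrays scaled by their median, limma called *Mcm5*, *Prc1* and *Mki67* lower at 2 W than day 0, and *Mcm5*, *Prc1* and *Cks2* lower than 1 W, with 3.67% and 0.274% of all probe sets called lower.

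In members with several probe sets, the dimmer ones repeated the 2 W direction in part. There were 11 such genes with 16 dimmer probe sets, of which 10 were below day 0 at 2 W, as were 8237 of all 14217 genes. Of the 10 dimmer probe sets above the filter, 8 were below day 0 and 8 below 1 W, beside 6537 and 7106 of the 10455 genes there. *Lig1* had log2 ratios of -0.65 and -0.32 at 2 W, and *Kif11* -0.71 and -2.58, the latter below the filter. *Ccnb1* had log2 ratios of -1.23 and -1.72 at 2 W by its 2 probe sets, and *Top2a* -1.39 and -1.18. The 3 probe sets of *Mad2l1* had -0.56, -0.52 and -0.34. The brighter 2 of *Tk1* had -0.83 and -0.76, and its dimmest 0.48. *Racgap1* was above day 0 by both, at 0.62 and 0.51. *Ccne2* had -0.95 by its brighter probe set and 0.23 by the other, so its 2 W direction depends on the probe set. The same held for *Ttk*, with -1.26 by its brighter probe set and 1.47 by the other, both below the filter, and 0.10 by their mean. Of the 5 probe sets of *Cdc20*, the brighter 2 had -0.92 and -0.86, and the others, all below the filter, -1.22, 1.04 and 1.26.

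Other genes of the same processes, from lists that hold no member, had medians below day 0 at 2 W as well. So had all genes, at a median log2 ratio of -0.16 with 8237 of 14217 below day 0. Of 26 measured replication genes outside the list, 22 were below day 0 at 2 W and 2 under 0.5-fold, and their median log2 ratios were 0.12 (1 W) and -0.49 (2 W). *Dut*, the dUTPase and the brightest of these, was 0.979-fold and 0.733-fold. *Uhrf1*, which keeps DNA methylation through replication, was lower at both times, with intensities of 132 (day 0), 58.0 and 64.9 (1 W) and 18.7 (2 W) and log2 ratios of -0.91 and -2.25. Of 29 other mitosis genes, 20 were below day 0 and 11 under 0.5-fold at 2 W, while 3 were over 2.0-fold, with medians of 0.13 and -0.81. These 3, named after their values were seen, were *Cenpe*, *Cdca8* and *Cdca2*, with intensities at day 0 of 3.25, 4.29 and 7.03, each below the filter. *Smc2*, a condensin subunit and the brightest, was 0.757-fold and 0.486-fold, and *Cenpk*, a kinetochore protein, 1.74-fold and 0.804-fold. Of 19 E2F, MuvB, Rb family and related factors, 16 were below day 0 and 5 under 0.5-fold at 2 W, with medians of -0.058 and -0.40. *Tfdp1*, the partner of E2F proteins, was 1.03-fold and 0.736-fold, and *Lin9*, a subunit of MuvB, 0.579-fold and 0.405-fold. limma called 0 genes of these 3 lists in any comparison, and at an unadjusted p under 0.05 it had 5, 9 and 8 lower and 0 higher at 2 W than day 0. These were 20% of 25 replication genes tested, 40.9% of 22 mitosis genes and 50% of 16 factors, beside 21.9% of all probe sets. Under 0.5-fold at 2 W were 7.69%, 37.9% and 26.3% of the measured genes of the lists, beside 14.7% of all genes. In neither of these shares were the other replication genes above the background.

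**Figure D5:**
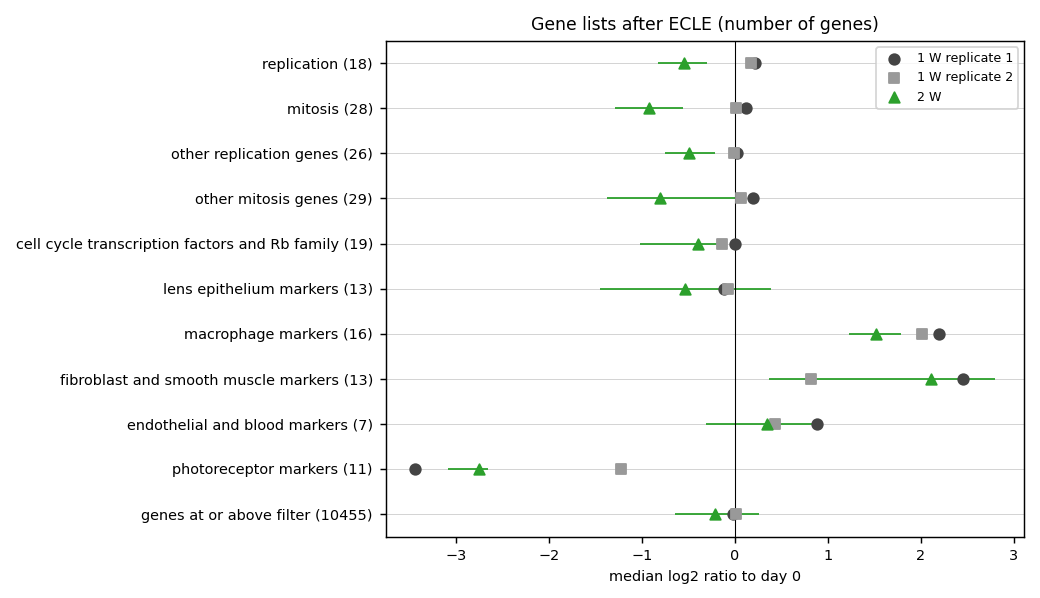
Median log2 ratio against day 0 (horizontal axis) for each gene list on the 3 arrays after ECLE, with the number of genes measured, and with lines for the quartiles at 2 W. The replication and mitosis lists lie near 0 on both 1 W arrays and left of 0 at 2 W, while macrophage markers lie right of 0 throughout.

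Markers of cell types in the capsule also differed between the arrays, and their part in these results was not tested. No marker was listed at 0 on any array. In units of the array mean, 13 lens epithelium markers summed to 217, 215, 213 and 218 in the order day 0, 1 W replicates 1 and 2, and 2 W. Their median log2 ratio at 2 W was -0.54, with 8 of 13 below day 0 and 5 under 0.5-fold. *Cryab*, a crystallin also kept by fiber cells, was 1.52-fold at 2 W, and *Cdh1*, the epithelial cadherin, 0.270-fold. The sum of 16 macrophage markers was 3.07, 20.2, 16.0 and 11.3 in the same order, with all 16 lower at 2 W than at 1 W and 13 over 2.0-fold of day 0 at 2 W. *Lyz2*, a lysozyme of phagocytes, had 235 (day 0), 2005 and 1472 (1 W) and 826 (2 W). Photoreceptor markers summed to 63.3, 6.37, 26.9 and 8.44, with 11 of 11 under 0.5-fold at both times. *Sag*, the rod arrestin, was 0.113-fold and *Pde6b* 0.107-fold at 2 W. Fibroblast and smooth muscle markers summed to 23.7, 64.8, 36.3 and 53.1, with 8 of 13 over 2.0-fold and 1 under 0.5-fold at 2 W. *Col1a2*, a chain of type I collagen, was 1.29-fold and *Tagln*, an actin-binding protein of contractile cells, 26.9-fold at 2 W. limma called 2 of these 13 markers (*Tagln* and *Col1a1*, both higher) at 2 W. Endothelial and blood markers summed to 3.68, 3.004, 2.33 and 2.64, and *Hbb* of hemoglobin was 0.377-fold at 2 W. Between the 1 W arrays, photoreceptor markers differed by a median of 2.18 log2 units and the replication and mitosis genes by 0.19. The signal of control probe sets at the 3' end over that at the 5' end was 2.32, 1.89, 1.90 and 1.61 in that order for beta-actin and 1.16, 1.12, 1.18 and 1.10 for GAPDH.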

How the data were processed

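RNA of lens capsules was labelled with the GeneChip 3' IVT PLUS kit and hybridised to an Affymetrix rat genome array. The authors deposited 1 intensity per probe set and array on a linear scale, made with Affymetrix Expression Console per the labels; the summary method is not stated here, nor whether a per chip normalization is already contained. Of 31099 probe sets, 57 controls were left out. Each array was scaled to a common mean and log2 was taken. Symbols came from the platform annotation: 20826 probe sets had 1 symbol, 436 several and 9780 none. Probe sets that reached the 40th percentile of mean log2 (18625) entered limma (version 3.58.1, R 4.3.3), with trend, day 0, 1 W and 2 W as groups and Benjamini-Hochberg adjustment at 0.05. Residual degrees of freedom were 1, from the 1 W replicates, and p-values measure only their spread. The labels name them biological replicates, but how many eyes or animals each array pools is unknown here. With 4 arrays, their number limits the precision. Fold limits of 2.0 and 0.5 describe single ratios. Python 3.11.15 with pandas 2.3.3 was used, and the limma step was tested on simulated data. Intensities were given for the brightest member of each role group and the one farthest from day 0 at 1 W, and other lists were named by the same rule above the filter; intensities of further members, and *Pax6*, *Gja1* and *Col1a1*, were chosen after their values were seen. Members and lists were chosen with earlier results of these data known. Alternatives covered the scaling, a floor, the choice of probe set, filters, the moderation and leaving out each 1 W array. Promoters came from RefSeq (GRCr8), and symbols were matched as printed.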

Additional observations from a re-analysis of the deposited data

Results flagged for a closer look

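In 21 members both 1 W arrays lay above day 0 and the 2 W array below it (45.7% of 46). This was so in 11.5% of all genes and 13.1% above the filter, and every ratio shares the day 0 array. The opposite signs themselves were not tested, and limma called 0 of these genes between 2 W and 1 W. Among replication genes the log2 ratios at 2 W were -3.17 for *Mcm5*, -0.82 for *Mcm4*, -0.70 for *Fen1*, -0.58 for *Pcna* and -0.48 for *Mcm2*. Smaller ratios were found for *Chek1* (-0.34), *Prim1* (-0.31), *Mcm3* (-0.30), *Mcm7* (-0.25) and *Pola1* (-0.060). Among mitosis genes they were -1.98 for *Melk*, -1.26 for *Ttk*, -1.23 for *Ccnb1*, -1.20 for *Cks2*, -1.01 for *Kif20a* and -1.0005 for *Stmn1*. *Cdk1* (-0.70), *Cdca3* (-0.60), *Ube2c* (-0.58), *Birc5* (-0.34) and *Aurka* (-0.26) were nearer to day 0. The sign at 2 W turned for *Mcm7* and *Pola1* under scaling by the median, the 75th percentile and quantiles, and for *Mcm3* under the latter pair. It turned for *Aurka* under the median and the 75th percentile, for *Prim1* under the 75th percentile, and for *Ttk* (0.10) with the mean of its probe sets. The 1 W side depends on the scaling too. By the 1 W mean, 29 members were above day 0, against 33 with the median or quantiles, 32 with the 75th percentile and 18 as deposited. As deposited, *Ccnb1* (106 at day 0, 95.0 and 101 at 1 W), *Cdca3* and *Mcm4* were below day 0 on both 1 W arrays.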

How the results depend on the processing

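Mitosis medians stayed below replication medians at 1 W and 2 W under every alternative run. Scaling by the median or the 75th percentile, or using values as deposited, could not change their difference, since each alters an array by a constant. With arrays scaled by the median, the 75th percentile or quantiles, the 1 W median was 0.29, 0.25 and 0.24 for replication and 0.20, 0.15 and 0.16 for mitosis, and the 2 W median -0.27, -0.23 and -0.26 for replication and -0.65, -0.61 and -0.63 for mitosis. As deposited these were -0.018 and -0.12 at 1 W and -1.11 and -1.49 at 2 W. Members past the fold limits at 2 W numbered 15, against 9 with the median or the 75th percentile, 10 with quantiles, 13 with a floor and 34 as deposited. As deposited, the median gene above the filter was itself at a log2 ratio of -0.78 at 2 W. The share of all genes past the limits was not counted under these alternatives. limma called 3 members at 2 W against day 0 and 3 against 1 W with median scaling, and 32 and 27 as deposited, when 41% and 22.7% of all probe sets were also called lower. With the mean of all probe sets of a gene, the 2 W medians were -0.42 and -0.73, and mitosis minus replication was -0.050 at 1 W and -0.31 at 2 W. With members above the filter only, the replication median at 2 W was -0.58 and 0 members passed the fold limits at 1 W. Leaving out a 1 W array gave 2 to 3 members past the fold limits at 1 W, medians of 0.17 to 0.21 for replication and 0.0085 to 0.11 for mitosis, and a difference of -0.16 to -0.095. Without a 1 W replicate no residual degrees of freedom remain and limma was not run. No paired analysis was possible because only the 1 W arrays carry replicate numbers. The day 0 and 2 W groups have 1 array each, so their own spread is unknown, and genes below the filter have signals that were not set against background, since no detection calls were used here.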
